A study of Mus musculus with 7 samples.

Results

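Major urinary proteins are small secreted lipocalins, barrel-shaped carriers that hold pheromones and other small volatile molecules. The adult male mouse liver makes them in large amounts under pulses of growth hormone, androgens, thyroid hormone and glucocorticoids, and the kidney passes them into the urine as scent marks. Their genes lie side by side in 1 cluster, in which many genes are near-identical copies interleaved with pseudogenes, and the growth hormone response runs through the receptor, the kinase Jak2 and the transcription factor Stat5b. Chromatin accessibility of this cluster was described in liver samples from young mice, 3 months old, and aged mice, 18 months old.

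All animals were male C57BL/6N mice without a genetic change or a treatment, 3 samples came from young and 4 from aged liver, and whole tissue was used, so that fewer cells of a type and lower accessibility in each cell cannot be told apart. By the deposited description 3 animals gave the 4 aged samples, with 2 lobules taken from 1 animal, and which samples share it is not stated. The paper instead treats every aged sample as a biological replicate of its own. Accessibility was measured by ATAC-seq, in which a transposase inserts sequencing adapters where DNA is exposed, and the authors deposited raw counts for 55680 regions of GRCm38. The counts in regions summed to 10384725, 25461110 and 5709327 in young replicates 1 to 3 and to 11717992, 5108283, 4474652 and 8397956 in aged replicates 1 to 4.

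The members were the 113 regions of chromosome 4 that overlap a gene named Mup or Mup-ps in GENCODE M21, or the 10 kb on either side of it. The annotation holds 48 such genes, 22 of them protein-coding and 26 pseudogenes, between 59956804 and 62150863, a span of 2.19 Mb. At least 1 region lay in or near 20 of the protein-coding genes and 19 of the pseudogenes, and Mup4 and Mup13 had none. The cluster was selected on the accessibility of these same libraries in aged against young liver, so its contrast with age is a description here and supports nothing. No region was removed for low counts in the main comparison. Of the 113 regions, 77 held at least 10 counts in every library, and 1 had a library with a count of 0.

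Copied sequence set the cluster apart from the rest of the table. A near-identical copy, another place in the genome that covers at least 80% of the region at 95% identity or more, was found for 87 of the 113 regions (77.0%), against 919 of all 55680 regions (1.65%). The median share of 50-base words that occur once in the genome was 24.2% for the cluster and 100% for all regions. The authors discarded reads of low mapping quality, so that reads from identical stretches may be missing from the counts. Reads from near-identical genes may be placed on the wrong copy. The region from 61606605 to 61607765, with 0% unique words, still had 6 to 49 counts per library. Median GC content was 40.8% in the cluster and 49.4% in all regions, and the median accessibility was 5.67 and 8.79 CPM (counts scaled to a common library size after TMM normalization), respectively.

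The copies were not spread evenly. From Mup4 up to 10 kb before Mup5, 85 of 90 regions had a copy, and from there to Mup21 2 of 23 had one. Within the cluster, 82 regions fell into 11 groups of regions that align to each other, and 31 stood alone. The largest groups followed the repeat unit of the array. They lay at the ends of the genes (9 regions), at the promoters (15 regions), at a median of 9.46 kb before the start of the nearest protein-coding gene (18 regions), 14.4 kb before it (16 regions, 6 of them at the start of a pseudogene), and 19.4 kb before it (8 regions). These groups were formed after the values had been seen.

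The summed accessibility of the cluster overlapped between the ages. Its share of all counts in regions was 0.151%, 0.112% and 0.141% in young replicates 1 to 3 and 0.0975%, 0.114%, 0.114% and 0.0806% in aged replicates 1 to 4. Young replicate 2, the deepest library, lay below aged replicates 2 and 3. The ratio of the means was 0.755, from 0.135% ± 0.0204 (SD, young, n = 3) and 0.102% ± 0.0160 (SD, aged, n = 4). A sum over the cluster is not changed by reads that move among its 113 regions, but it is by reads placed on copies outside them. In the 26 regions without a copy, the share was 0.0444%, 0.0435% and 0.0442% in young and 0.0381%, 0.0454%, 0.0449% and 0.0354% in aged samples, and the ratio of the means was 0.930.

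Of the 113 regions, 79 had a log2 fold change below 0 and 34 above it, most of them short of the threshold. Of all 113, 22 had lower accessibility at an adjusted p under 0.05 in edgeR's quasi-likelihood test, against 3.30% of all regions tested, and 0 had higher accessibility, against 2.44% of all regions. At an unadjusted p under 0.05, 36 regions were lower and 3 were higher, against 12.7% and 11.9% of all regions. DESeq2 called 23 lower and 1 higher, against 3.47% and 4.96% of all regions, and limma voom called 20 lower and 1 higher, against 4.28% and 3.95%. In 28 regions every aged sample lay below every young one, against 11.6% of all regions, and in 2 every aged sample lay above, against 10.2%. The median log2 fold change of aged over young was -0.34 over the cluster, -0.04 over all regions and -0.04 over the 3682 other regions of chromosome 4. The count of 22 rested on single libraries, the scaling and the count filter. It was 4 without young replicate 1, 8 without aged replicate 1 and 12 without aged replicate 3. Over all regions the number of lower calls was then 133, 273 and 475 in place of 1838. With offsets that follow mean abundance it was 10 in the cluster and 433 over all regions. With at least 10 counts in every sample it was 6 of 77 regions of the cluster, and this filter removes regions with few aged counts.

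All 22 of these regions lay in the part from Mup4 up to 10 kb before Mup5, where the median log2 fold change was -0.49. From there to Mup21 it was 0.02, with a range of -0.81 to 0.57, and 0 of 23 regions passed in either direction in edgeR's test. Split by sequence, the 87 regions with a copy had a median of -0.48, with 19 lower calls, and the 26 without a copy had a median of -0.07, with 3 lower calls and a range of -1.76 to 0.57. The region at -1.76, from 60528502 to 60528745, is 1 of these 3 calls. It has no copy by the rule used, but it aligns to another region of the cluster, and 35.9% of its words are unique. The 832 regions with a copy elsewhere in the genome had a median of -0.12, with 175 lower and 31 higher calls, and the 54735 other regions without a copy had a median of -0.03, with 1641 lower and 1329 higher calls. Lower calls thus made up 21.8% of the copied regions in the cluster and 21.03% of the copied regions elsewhere, against 3.00% of the other regions without a copy. All 3 lower calls without a copy were among the 5 such regions before the flank of Mup5, and none of the 21 such regions from there to Mup21 was called in either direction. Whether position or copied sequence goes with the lower values was not tested.

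**Figure D1:**
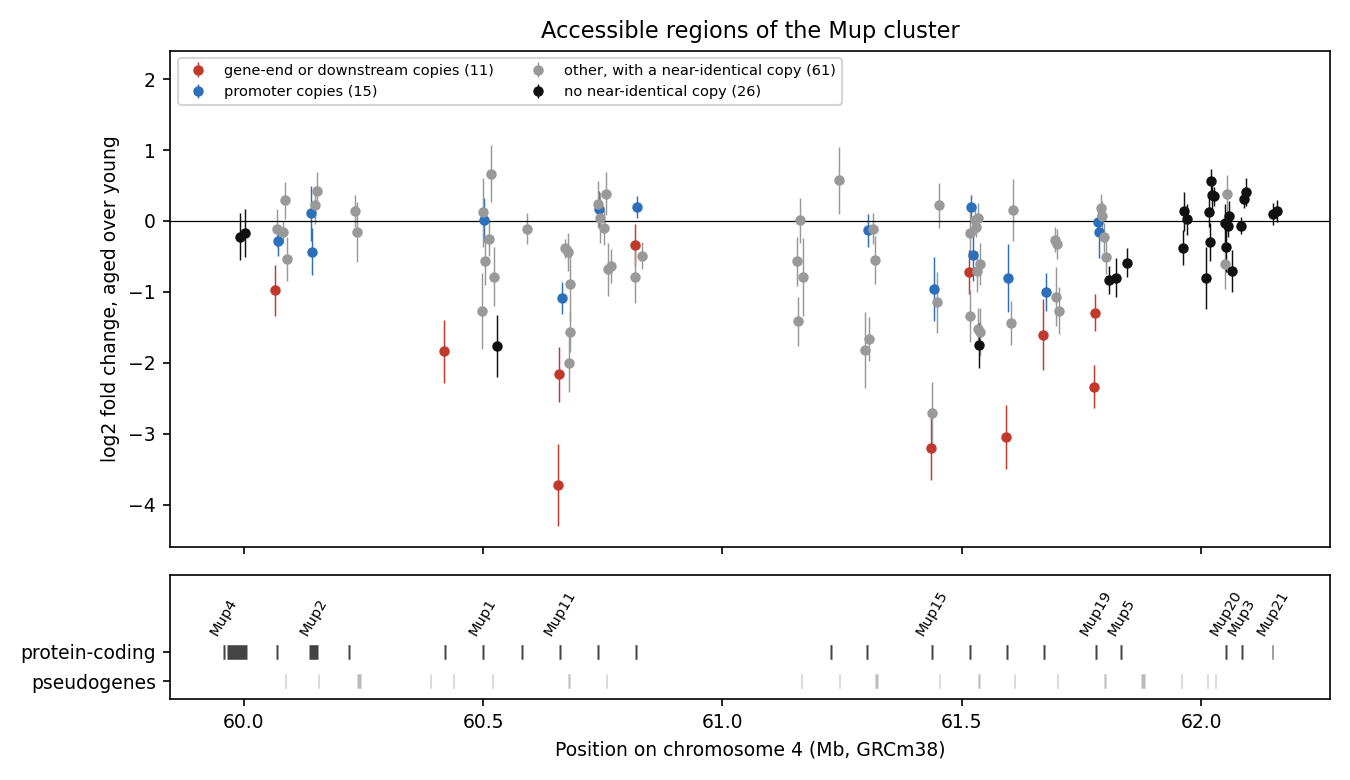
Log2 fold change (aged over young, points with the standard error as bars) of the 113 regions by position on chromosome 4 (Mb, GRCm38), with protein-coding Mup genes and pseudogenes drawn to scale below. Regions of the gene-end and downstream copies reach -3.72, and the regions at the Mup21 end lie on both sides of 0.

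Of the groups with more than 2 regions, the gene ends had the lowest summed log2 fold change. The 9 gene-end copies lie at the annotated ends of Mup7, Mup9, Mup11, Mup22, Mup15, Mup16, Mup17, Mup18 and Mup19, genes of the group that encodes the closely related urinary proteins of the array. Their summed accessibility was 242, 94.3 and 200.4 CPM in young replicates 1 to 3 and 82.4, 70.0, 72.1 and 33.6 CPM in aged replicates 1 to 4. The groups did not overlap, but young replicate 2 was much nearer to the aged samples than to the other young ones, and aged replicate 4 was the lowest. The means were 179 ± 76.1 CPM (SD, n = 3) and 64.5 ± 21.3 CPM (SD, n = 4), and the log2 fold change of the sum, fitted as 1 feature, was -1.47 (standard error 0.29). Summing leaves out any exchange of reads among these 9 regions, but not with the copies that are not regions of the table.

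Every one of the 9 had a log2 fold change below 0, from -3.21 at Mup15 to -0.34 at Mup22, with a median of -1.60, and 5 passed the threshold. The region at the end of Mup15, on chromosome 4 from 61434763 to 61436470, had 16.9, 5.25 and 9.37 CPM in young and 1.76, 0.981, 0.934 and 0.509 CPM in aged samples, a log2 fold change of -3.21 (standard error 0.45). All aged values were below all young values there, on counts of 4 to 20 in the aged libraries. The region at the end of Mup17, from 61590857 to 61592944, had 33.0, 6.99 and 20.1 CPM in young and 3.34, 2.35, 2.10 and 1.40 CPM in aged samples, a log2 fold change of -3.04 (standard error 0.45). In both, young replicate 2 was the lowest young library. The most accessible of the 9, at the end of Mup7 from 60065012 to 60067192, had 86.0, 29.5 and 59.0 CPM in young and 39.1, 36.5, 30.6 and 11.1 CPM in aged samples, and here the ages overlapped. The end of Mup11, from 60657384 to 60659316, had 43.6, 17.5 and 66.1 CPM in young and 15.6, 6.47, 7.004 and 6.11 CPM in aged samples, with no overlap.

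**Figure D2:**
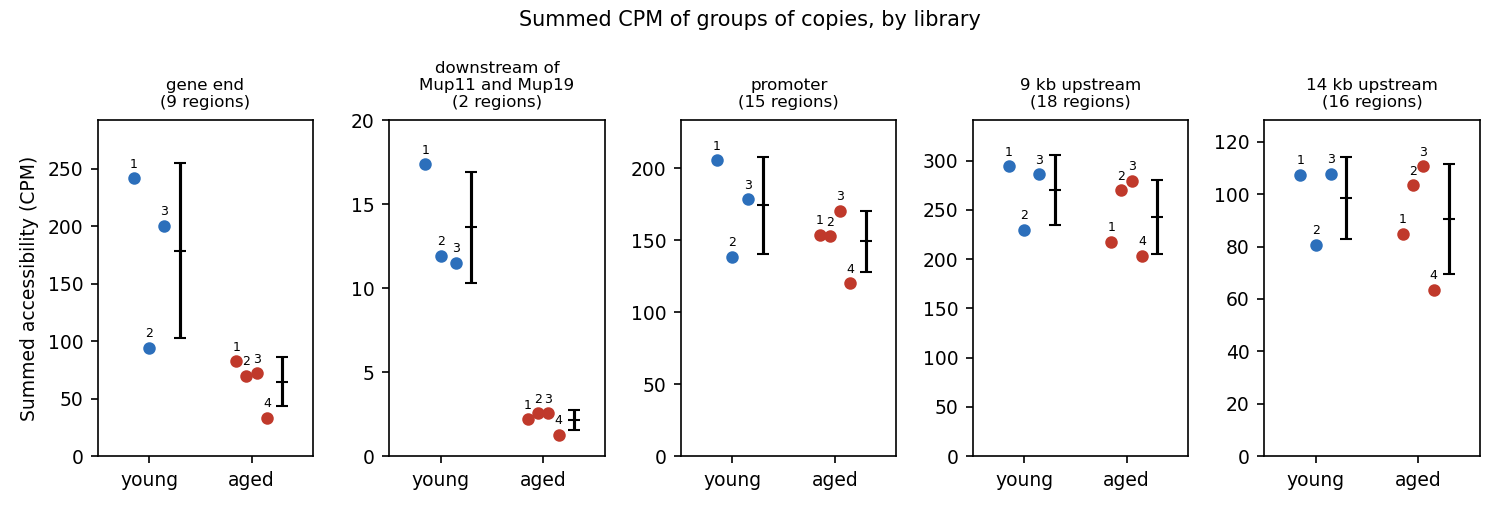
Summed CPM of 5 groups of copies in each library (numbered points, replicate numbers), with the mean and SD as bars. The gene-end copies range from 33.6 to 82.4 CPM in aged and from 94.3 to 242 CPM in young samples, and of the other groups drawn, the promoter copies and those 9 and 14 kb before the genes overlap between the ages.

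Regions at the ends of other genes were counted for comparison, and differences in share were not tested. Over the 1884 other regions of the genome within 1000 bp of the end of a protein-coding gene and outside promoters, the median log2 fold change was -0.23, with 153 lower calls (8.12%) and 26 higher calls, and every aged sample lay below every young one in 22.9%. Over the 14 such regions of the cluster the median was -1.13, with 5 lower calls. The 2 sets differ in copied sequence, with a near-identical copy for 12 of these 14 regions and for 29 of the 1884 others. Of copied regions outside the cluster at any position, 21.03% were lower calls. Of 12 hepatocyte marker genes, 8 had a region at their end, with log2 fold changes from -0.50 to 1.08, a median of 0.03 and 0 calls in edgeR's test. At the end of Alb, which encodes serum albumin, accessibility was 85.2, 163 and 88.0 CPM in young and 80.3, 119, 76.6 and 45.7 CPM in aged samples (log2 fold change -0.50, standard error 0.26). The ages overlapped there.

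Just beyond the gene ends lay the largest difference of the cluster. The region from 60656737 to 60657158, past the end of Mup11 and outside every annotated exon, had 74, 61 and 32 counts in young replicates 1 to 3 and 7, 2, 0 and 1 counts in aged replicates 1 to 4. That is 6.85, 2.31 and 5.26 CPM against at most 0.615 CPM, and the fitted log2 fold change was -3.72 (standard error 0.58). The aged counts are very low, and the value changed with how it was calculated. A different measure, the difference between the mean log2 CPM of the ages with a prior count of 0.5, was -4.30. The fitted value was -4.64 without aged replicate 1 and -2.94 with offsets that follow mean abundance. Its counterpart past the end of Mup19, from 61776403 to 61776978, had 10.6, 9.64 and 6.25 CPM in young and 1.58, 2.16, 2.57 and 1.15 CPM in aged samples, a log2 fold change of -2.34 (standard error 0.30). Summed, the pair had 17.4, 11.9 and 11.5 CPM in young and 2.196, 2.55, 2.57 and 1.27 CPM in aged samples, and in this sum young replicate 2 did not stand below young replicate 3. The 2 regions align over 381 bases, of which 7 differ. Each has 13 near-identical copies in the genome, and 35.1% of the words past Mup11 and 26.6% of those past Mup19 are unique. The closest copy of the region past Mup11 is 99.1% identical. Summing the pair does not leave out an exchange of reads with other copies. The middle 300 bases of the region past Mup11 (GRCm38.p6, forward strand, chr4:60656798-60657097) are shown because they carry the largest difference, with the 6 bases that differ from the counterpart in capitals.
past Mup11: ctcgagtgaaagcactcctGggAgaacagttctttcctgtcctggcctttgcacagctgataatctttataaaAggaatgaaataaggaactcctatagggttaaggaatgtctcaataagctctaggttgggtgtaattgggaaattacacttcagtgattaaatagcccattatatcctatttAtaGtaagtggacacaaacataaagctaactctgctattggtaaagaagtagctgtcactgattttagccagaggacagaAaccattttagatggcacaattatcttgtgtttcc

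The genes with a promoter region were in part others than those with a region at the end. No region lay within 200 bp of a start of Mup9, Mup15 or Mup17. Promoter copies lay further before the starts of Mup15 (from 61440802) and Mup17 (from 61597077). Reads from identical stretches may be missing, so a gene without a promoter region may still have an open promoter, which was not tested. The 15 promoter copies, 9 of which overlap the annotated start of a protein-coding Mup gene, summed to 206, 139 and 178 CPM in young and 154, 153, 170.4 and 120.0 CPM in aged samples. The ages overlapped, with young replicate 2 below aged replicates 1 to 3. The means were 174 ± 33.7 CPM (SD, n = 3) and 149 ± 21.1 CPM (SD, n = 4), and the log2 fold change of the sum was -0.22 (standard error 0.15). Singly the 15 ranged from -1.09 to 0.20 with a median of -0.16, and 2 passed the threshold, the promoters of Mup11 and Mup18. The promoter region of Mup11, from 60662003 to 60665956, had 30.5, 20.7 and 32.1 CPM in young and 16.6, 13.3, 13.8 and 7.89 CPM in aged samples, a log2 fold change of -1.09 (standard error 0.22). The promoter region of Mup18, from 61673683 to 61676243, had 18.1, 9.68 and 16.4 CPM in young and 7.99, 8.24, 8.64 and 4.45 CPM in aged samples, a log2 fold change of -1.001 (standard error 0.26). Neither overlapped between the ages. In all, 14 of 22 protein-coding Mup genes and 6 of 26 pseudogenes had a promoter region, 21 regions with log2 fold changes from -1.52 to 0.43. Of these 21, 18 had a near-identical copy, against 215 of the 15401 other promoter regions, and the median accessibility was 10.5 and 27.2 CPM, respectively. Of copied regions outside the cluster at any position, 21.03% were lower calls. Of the 21, 3 (14.3%) were lower past the threshold, against 314 (2.04%) of the 15401 others. The difference in share was not tested. The lowest, from 61534090 to 61535005, is the second of 2 promoter regions of the pseudogene Mup-ps13, with 7.31, 6.31 and 5.26 CPM in young and 2.11, 3.33, 2.10 and 1.53 CPM in aged samples. Whether gene ends and promoters differ in their response was not tested, because the groups were formed after the values had been seen.

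The sites between the genes fell into 3 large groups. The 18 copies 9.46 kb before the genes, the most accessible group, summed to 294, 230.0 and 286 CPM in young and 218, 269.9, 279.7 and 204 CPM in aged samples, with a log2 fold change of the sum of -0.16 (standard error 0.14). The 16 copies 14.4 kb before the genes, of which 6 overlap a pseudogene start and 1 is the promoter region of Mup2, summed to 107, 80.7 and 108 CPM in young and 84.9, 103, 111 and 63.5 CPM in aged samples, with a log2 fold change of -0.13 (standard error 0.17). In both groups the ages overlapped and aged replicate 4 was the lowest library. The 8 copies 19.4 kb before the genes had 51.3, 34.2 and 37.7 CPM in young and 21.3, 34.1, 27.5 and 19.6 CPM in aged samples, a log2 fold change of -0.70 (standard error 0.19). There the groups did not overlap, all 8 regions had a log2 fold change below 0, and aged replicate 2 came within 0.1 CPM of young replicate 2.

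Of the genes listed for the cluster, Mup1 and Mup2 belong to the array of near-identical genes. The promoter region of Mup1, from 60501070 to 60502704, had 8.89, 3.82 and 8.88 CPM in young and 5.89, 6.28, 10.04 and 6.49 CPM in aged samples, a log2 fold change of 0.02 (standard error 0.31). Young replicate 2 was the lowest of the 7 libraries and aged replicate 3 the highest. The sign of this value changed under 7 of 22 other settings. This region has 15 near-identical copies and is shared with the start of Gm13773. The region at a start of Mup2, from 60151821 to 60154723, had 11.8, 7.22 and 14.96 CPM in young and 13.1, 19.02, 17.7 and 10.2 CPM in aged samples, a log2 fold change of 0.43 (standard error 0.27). The ages overlapped, and the region has 17 near-identical copies. It belongs to the copies 14.4 kb before the genes. The promoter copies inside Mup2, at 60140602 and 60141578, had log2 fold changes of 0.11 and -0.43, and neither passed.

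Mup5, whose protein is known from glands of the head as well, and Mup4, which is expressed in nasal and other glands, had no promoter region. The most accessible region in the flank of Mup5, from 61844218 to 61845773, consists of unique words only, and had 19.3, 19.7 and 16.1 CPM in young and 11.3, 13.7, 16.6 and 8.65 CPM in aged samples, a log2 fold change of -0.59 (standard error 0.20). Aged replicate 3 lay above young replicate 3, and the other aged samples lay below all young ones. A region between Mup19 and Mup5 from 61807601 to 61809346, singled out after its values were seen because 91.6% of its words are unique, had 38.9, 34.1 and 22.5 CPM in young and 16.8, 19.2, 22.9 and 14.3 CPM in aged samples. Its log2 fold change was -0.83 (standard error 0.19), past the threshold, and aged replicate 3 lay just above young replicate 3. The region from 61535491 to 61535900, inside the pseudogene Mup-ps13 and also named after its values were seen, has 78.9% unique words and no near-identical copy. It had 5.92, 4.16 and 3.29 CPM in young and 1.32, 1.57, 1.17 and 1.27 CPM in aged samples. There the log2 fold change was -1.75 (standard error 0.32), past the threshold, and the ages did not overlap. The regions at 59991087 (94.2% unique words) and 60002424 (91.9%), also before the flank of Mup5, had log2 fold changes of -0.22 and -0.17. Neither of them passed.

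Mup20, also called darcin, is the male pheromone protein that attracts females. The promoters of Mup3 and Mup21 were 73.7% to 85.0% identical to those of 10 matched genes from Mup7 to Mup19. The promoter region of Mup20, from 62054011 to 62054380, had 4.35, 3.14 and 3.62 CPM in young and 4.39, 3.73, 3.97 and 6.62 CPM in aged samples, a log2 fold change of 0.37 (standard error 0.28). The ages overlapped there, with aged replicate 4 the highest. The promoter region of Mup3, from 62086507 to 62090530, was the most accessible region of the cluster, with 65.8, 67.6 and 67.3 CPM in young and 73.3, 89.2, 98.5 and 70.6 CPM in aged samples. Every aged sample lay above every young one, the log2 fold change was 0.30 (standard error 0.13), and the region, which also holds a start of Gm12909, has no near-identical copy. With offsets that follow mean abundance the value was 0.027. The promoter region of Mup21, from 62150070 to 62151464, had 16.3, 21.01 and 15.6 CPM in young and 18.3, 18.4, 20.3 and 19.2 CPM in aged samples, a log2 fold change of 0.09 (standard error 0.16), with the aged samples inside the young range, and 0.25 without young replicate 2.

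**Figure D3:**
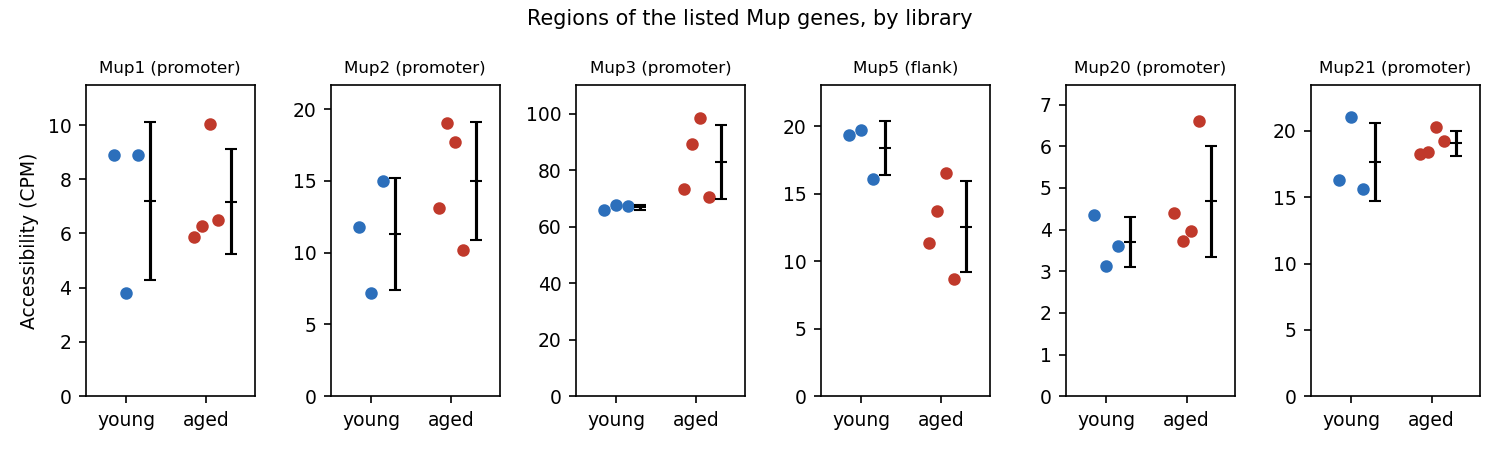
CPM in each library (points) of the promoter regions of Mup1, Mup2, Mup3, Mup20 and Mup21 and of a flanking region of Mup5, with the mean and SD as bars. At Mup3 the aged samples reach from 70.6 to 98.5 CPM and the young ones from 65.8 to 67.6 CPM, and the ages overlap in the other panels.

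The other most accessible regions also lay at this end. The region at the end of Mup3, from 62082113 to 62085244, had 65.3, 72.9 and 71.5 CPM in young and 60.4, 74.7, 72.6 and 60.8 CPM in aged samples, a log2 fold change of -0.06 (standard error 0.12) that was -0.33 with offsets that follow mean abundance. It is a gene-end region without a copy, and its ages overlapped, unlike the summed gene-end copies. A region just past the end of the pseudogene Mup-ps21, from 62026248 to 62028537, had 34.1, 37.5 and 40.4 CPM in young and 45.5, 48.8, 56.5 and 40.0 CPM in aged samples, a log2 fold change of 0.35 (standard error 0.13) that was 0.16 with the same offsets. The 3 highest log2 fold changes were 0.67 at 60516595 and 0.58 at 61242658, both with 17 near-identical copies and under 5 CPM in every library, and 0.57 at 62020291, without a copy. At the last, the young samples had 14.2, 12.4 and 12.003 CPM and the aged ones 17.7, 21.8, 20.5 and 16.9 CPM, and the groups did not overlap.

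The promoter sequences show how close the copies are. RefSeq (GRCm38.p6) promoters, from 250 bases before to 50 after the start, were matched for 14 protein-coding Mup genes. Among the 10 of them from Mup7 to Mup19, pairs were 89.9% to 98.98% identical over their best local alignment, with a median of 96.97%, and Mup3 or Mup21 against these 10 gave 73.7% to 85.0%. Mup3 and Mup21 were 92.9% identical. Of the motifs searched on both strands, TTCNNNGAA (the STAT5 core) was in 0 of 14 promoters and in 8.30% of all 32851 promoters of the table. TGTTTAC or TGTTTGC (forkhead factors) was in 0 and 8.48%, TTGCGCAA (C/EBP) in 0 and 0.183%, CAAAGTCCA or CAAAGGTCA (HNF4) in 0 and 0.9497%, and the HNF1 palindrome in 0 and 0.00913%. These letters may still lie outside the window. TATAAA was in 2 of 14, Mup4 and Mup6, and in 13.6% of all promoters. TATATAA, searched for after the sequences had been read and overlapping TATAAA in those 2 genes, was in 13 of 14 and in 3.24% of all promoters. The 250 bases before the start are shown for the 2 genes whose ends had the lowest log2 fold changes, Mup17 (chr4:61595833-61596082) and Mup15 (chr4:61439705-61439954), and for Mup3 (chr4:62087318-62087567) and Mup21 (chr4:62150842-62151091), whose regions were not lower, all on the reverse strand of GRCm38.p6 with TATATAA in capitals.
Mup17: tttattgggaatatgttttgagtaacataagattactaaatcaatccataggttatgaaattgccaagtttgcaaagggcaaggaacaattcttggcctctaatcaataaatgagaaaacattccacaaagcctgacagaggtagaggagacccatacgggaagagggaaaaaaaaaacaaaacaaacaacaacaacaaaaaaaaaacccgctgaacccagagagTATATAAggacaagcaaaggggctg
Mup15: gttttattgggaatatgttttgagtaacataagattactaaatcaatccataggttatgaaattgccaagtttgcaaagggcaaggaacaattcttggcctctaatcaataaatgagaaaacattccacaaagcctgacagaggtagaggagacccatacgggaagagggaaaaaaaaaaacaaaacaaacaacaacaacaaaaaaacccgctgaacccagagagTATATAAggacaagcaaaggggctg
Mup3: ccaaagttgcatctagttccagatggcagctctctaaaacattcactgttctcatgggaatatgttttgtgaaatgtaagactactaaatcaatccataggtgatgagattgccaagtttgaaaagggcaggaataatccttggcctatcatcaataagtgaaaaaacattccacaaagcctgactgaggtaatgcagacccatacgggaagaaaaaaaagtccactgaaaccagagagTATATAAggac
Mup21: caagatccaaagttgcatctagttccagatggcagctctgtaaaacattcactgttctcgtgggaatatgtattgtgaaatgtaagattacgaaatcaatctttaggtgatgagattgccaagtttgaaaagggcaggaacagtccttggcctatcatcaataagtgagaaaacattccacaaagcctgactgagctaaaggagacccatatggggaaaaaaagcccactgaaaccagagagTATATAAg

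Genes of the hormone pathway that controls the cluster were read from their promoter regions, with edgeR's adjusted p over all regions. The median log2 fold change was 0.09 over all 15422 promoter regions, with 317 lower and 691 higher calls, so the lists are to be set beside that. Of 13 genes of growth hormone and STAT5 signalling, 3 were higher in aged liver and 0 lower, with a median of 0.30, and DESeq2 called 6 higher and limma voom 3. Over all regions DESeq2 called 4.96% higher and limma voom 3.95%, shares that are not of promoter regions alone. In 3153 of the 15422 promoter regions every aged sample lay above every young one, against 10.2% of all regions. Igf1, the growth factor that the liver secretes in response to growth hormone, rose by a log2 value of 0.97, with 73.5 ± 28.9 CPM (SD of the young, n = 3) against 142 ± 20.7 CPM (SD of the aged, n = 4), all 4 aged samples above the young and an adjusted p of 0.0196 in edgeR. Cish, a feedback inhibitor, and Prlr, the prolactin receptor, also rose, by 0.71 and 0.85. The receptor gene Ghr had a log2 fold change of 0.06 (standard error 0.12), Stat5b 0.40 (standard error 0.12), the inhibitor Socs2 0.54 (standard error 0.17), the repressor Bcl6 0.27 (standard error 0.14) and Cux2, a regulator in female liver, -0.41 (standard error 0.24), and none of these 5 passed the threshold.

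Of 16 transcription regulators of liver, 3 were higher and 0 lower in each of the 3 tools, with a median of 0.26. The hepatocyte factors Onecut1 and Foxa2 rose by 0.88 and 0.49, both in 4 of 4 aged samples. Hnf4a, a master regulator of hepatocytes, had 0.25 (standard error 0.10) and Zhx2, another of the listed regulators, 0.02 (standard error 0.13), and neither passed. Of 15 male-biased genes with a promoter region, Keg1, Nudt7 and Egfr rose, by 0.79, 0.54 and 0.52, and Cyp2d9, a steroid hydroxylase of male liver, fell, with 154 ± 7.18 CPM (SD of the young, n = 3) against 94.2 ± 12.4 CPM (SD of the aged, n = 4), a log2 difference of -0.71, all 4 aged samples below the young and an adjusted p of 0.0101 in edgeR. Of 5 female-biased genes with a promoter region, 0 passed in edgeR, DESeq2 or limma voom, and 1 was higher at an unadjusted p under 0.05. Of 9 other lipocalin and fatty acid binding genes, 0 passed by any of these tools. Without adjustment, 0 passed by edgeR or DESeq2, and 1 was higher by limma voom. The 9 higher calls of these lists rested on the scaling and on single libraries. They numbered 1 when offsets followed mean abundance and 21 when these followed GC content. There were 0 without young replicate 1, 2 without young replicate 2, and 1 without aged replicate 1 or 3. They also depended on which aged samples share an animal. With aged replicates 1 and 3 summed they numbered 2, and with any other pair of aged samples summed 7 to 13.

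Markers of hepatocytes, the cells that make these proteins, and of other liver cells were read from their promoter regions. All 12 hepatocyte markers had a promoter region, and their summed accessibility was 839, 963 and 959.9 CPM in young and 1153, 1103, 1265 and 1243 CPM in aged samples, with Apoa1 the most accessible. Of these 12, 3 were higher and 0 lower in edgeR's test, 6 were higher in DESeq2 and 4 in limma voom, and 10 were higher and 0 lower at an unadjusted p under 0.05 by each tool. Of all regions, 11.9%, 12.9% and 12.96% were higher without adjustment in edgeR, DESeq2 and limma voom, and 2.44%, 4.96% and 3.95% with it. These shares are not of promoter regions alone. Among promoter regions, 691 of 15422 were higher with adjustment in edgeR, and in 3153 every aged sample lay above every young one, against 10.2% of all regions. Alb had a log2 fold change of 0.13 (standard error 0.17). Promoter regions were present for 1 of 8 Kupffer cell and macrophage markers (Clec4f, 2.22, 2.65 and 2.30 CPM in young and 1.41, 0.588, 2.80 and 1.53 CPM in aged samples), and for 0 of 8 lymphocyte and 0 of 4 neutrophil markers. For sinusoidal endothelial cells 5 of 7 summed to 81.7, 78.2 and 71.4 CPM in young and 60.004, 57.3, 78.9 and 96.1 CPM in aged samples, with Stab2 leading. For stellate cells 4 of 7, with Reln leading, summed to 43.0, 39.2 and 36.3 CPM in young and 31.3, 23.3, 27.3 and 33.7 CPM in aged samples, and for cholangiocytes 3 of 5, with Sox9 leading, summed to 51.2, 43.8 and 52.0 CPM and 45.9, 39.4, 40.2 and 56.9 CPM. None of the non-hepatocyte markers passed by edgeR, where 2 were lower at an unadjusted p under 0.05, nor by DESeq2 or limma voom. The hepatocyte sum was above all young values in every aged sample and the stellate sum below them, and the part of cell makeup in these sums or in the cluster was not tested.

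Outside the cluster, of 30 protein-coding genes within 1 Mb, 26 had a promoter region, in 22 distinct regions. Genes that share a region, such as Fkbp15 and Slc31a1, were each counted, so these counts are of genes and not of regions. In edgeR's test 2 were higher (Ptbp3, a splicing regulator, by 0.42, and Rgs3, a regulator of G protein signalling, by 1.06) and 0 lower, against 2.44% and 3.30% of all regions. At an unadjusted p under 0.05, 3 were lower and 5 higher, against 12.7% and 11.9% of all regions. The median was 0.02. DESeq2 called 5 of the 26 genes higher and 0 lower, against 4.96% and 3.47% of all regions. By limma voom 2 were higher and 0 lower, against 3.95% and 4.28%. All these shares are of all regions and not of promoter regions alone. Of 15422 promoter regions, edgeR called 691 higher and 317 lower. In 3153 of them every aged sample lay above every young one, against 10.2% of all regions. Zfp37, the nearest gene past Mup21, had 6.56 ± 1.30 CPM (SD of the young, n = 3) against 4.34 ± 0.855 CPM (SD of the aged, n = 4), a log2 difference of -0.59 with an adjusted p of 0.162 in edgeR and all 4 aged samples below the young. Slc46a2, the nearest gene before Mup4, had no promoter region. Of 13696 promoter regions of protein-coding genes with a mean of at least 1 CPM, the 5 whose profile over the 7 samples was most like the summed cluster belonged to Lims2, 2810021J22Rik, Nanp with Ninl, Cys1 and Rbm38. Their root mean square differences from the cluster's centred log2 profile were 0.074 to 0.090, against a median of 0.34 over all regions searched. Their log2 fold changes were -0.33, -0.21, -0.17, -0.25 and -0.17, none past the threshold.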

How the data were processed

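Values are raw counts per region, the unit the authors deposited. By their processing notes, reads were trimmed with cutadapt 1.13 and aligned to GRCm38 with Bowtie2 2.4.1, peaks were called with MACS2 2.2.7, and reads in regions were counted with featureCounts. Reads of low mapping quality had been discarded.

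Counts were normalized by TMM and tested with the quasi-likelihood test of edgeR 4.0.16 in R 4.3.3, with age as the only term, adjusted over all 55680 regions by Benjamini and Hochberg with a threshold of 0.05. DESeq2 1.42.0 and limma voom (limma 3.58.1) were run beside it, and tables and figures were made in Python 3.11.15 with numpy 2.4.6, scipy 1.17.1, pandas 2.3.3, matplotlib 3.10.9, numba 0.67.0 and Biopython 1.88. Standard errors of edgeR's log2 fold changes were derived from the test. Each is the absolute log2 fold change divided by the square root of the test's F statistic. Near-identical copies were found with minimap2 2.31. A promoter region overlaps a GENCODE M21 transcript start within 200 bp.

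The members and the lists were chosen with earlier results of these data known. The lists were growth hormone and STAT5 signalling, transcription regulators of liver, male-biased genes, female-biased genes, other lipocalin and fatty acid binding genes, markers of liver cell types and genes within 1 Mb. Named regions were the promoters of the 7 listed Mup genes (else the most accessible region in the flank), the 3 lowest and 3 highest log2 fold changes, and the 3 most accessible regions. Further regions were named after their values were seen, as the text says for copies, for the region between Mup19 and Mup5 and for the region inside Mup-ps13. Pairs of libraries of the same age were compared for copied libraries, and none looked like a library sequenced again, with chi-square values of 2.38 to 6.06 for each degree of freedom. The result of 1 gene of the transcription regulators is not reported here.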

Additional observations from a re-analysis of the deposited data

How the results depend on the processing

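Of the 32 other settings, 20 left the 22 lower calls in the cluster within 1.5 times. The others gave 10 with offsets fitted on mean abundance, 6 with at least 10 counts in every sample, 5 at a threshold of 0.01, 12 with gene bodies only, 0 with only the 7 listed genes, 13 with protein-coding genes only, 3 without near-identical copies, 5 where at least 50% of words are unique and 9 with copies summed, and leaving out 1 library gave 4 to 21. Fewer regions are tested in several of these, and for the rest the cause was not tested. Higher calls numbered 1 with DESeq2, offsets on GC content, limma voom, aged replicates 1 and 4 or 2 and 4 summed, or the 50 kb flank, and 0 to 1 leaving out 1 library.

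The median log2 fold change of the cluster was -0.033 with only the 7 listed genes, -0.07 without near-identical copies, -0.17 with at least 10 counts in every sample or with gene bodies only, -0.19 with offsets on mean abundance, -0.20 where at least 50% of words are unique and -0.48 to -0.21 leaving out 1 library. That of the gene-end copies was -1.02 with at least 10 counts in every sample and -2.05 to -1.18 leaving out 1 library, and that of the promoter copies -0.40 to -0.01. The filter of 10 counts removes regions with few aged counts, such as the ends of Mup15 and Mup17. Low aged values thus decide in part what it keeps, and its smaller values show nothing about coverage. The ratio of shares was 0.930 without near-identical copies and 0.695 to 0.807 leaving out 1 library. Higher calls among the other list genes numbered 1 with offsets on mean abundance, 21 with offsets on GC content, 2 with aged replicates 1 and 3 summed, 0 at a threshold of 0.01 and 0 to 13 leaving out 1 library. Lower calls there numbered 0 at a threshold of 0.01 and 1 to 2 leaving out 1 library. The cause was not tested.

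Replicate numbers do not pair young with aged samples (correlations -0.119, 0.056 and 0.030). With the replicate number as a block the cluster had 19 lower calls and 1 higher call, and the other list genes 4 lower and 9 higher calls. The cause was not tested.

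The comparison rests on 3 young and 4 aged samples, and by the deposited description 2 of the aged ones share an animal. The median count in the regions of the cluster was 90, 145 and 42 in young and 54, 29, 25 and 29 in aged libraries, so single copies are thinly covered. Any reads lost from identical sequence cannot be recovered from the table, and copy number of the array in these animals is not known. No transcript or protein of the cluster was measured in these libraries.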
